A study of Mus musculus with 18 samples.

Results

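The genes described here are 10 mouse genes grouped as interferon-induced restriction factors of viruses or retroelements: Ifitm1, Ifitm2, Ifitm3, Ifitm6, Bst2, Slfn2, Slfn5, Samhd1, Apobec3 and Mov10. They are 10 of the 24421 genes listed in the count table and were picked by symbol, selected on their levels in these same libraries, which were known from earlier results. The levels and adjusted P-values below therefore describe these libraries and are no independent evidence that restriction factors as a class changed. Of the 10 genes, 9 passed the filter on low counts. Slfn5 did not, with at most 12 counts in any library.

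Type I interferon binds the receptor chains Ifnar1 and Ifnar2, and the kinases Jak1 and Tyk2 then activate a complex that holds Stat2 and Irf9 and binds the interferon-stimulated response element (ISRE) of target genes. Interferon-gamma acts mainly through another element, the gamma-activated site (GAS). Apart from the Schlafen genes Slfn2 and Slfn5, the encoded proteins act at different steps of a viral or retroelement cycle. The Ifitm proteins sit in membranes and hinder fusion of enveloped viruses, Bst2 (tetherin) holds budding particles at the cell surface, Samhd1 degrades deoxynucleotides, Apobec3 is a cytidine deaminase that acts on retroviral DNA, and Mov10 is an RNA helicase that limits LINE-1 retrotransposition. The Schlafen genes Slfn2 and Slfn5 are interferon-inducible regulators of cell growth, and Slfn2 is known for keeping T cells quiescent. Many carcinoma lines transcribe such genes without added interferon.

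RNA was sequenced from 4T1, a mammary carcinoma line from a BALB/cfC3H mouse, and from its derivatives 4T1R1 and 4T1R2. These are populations, not clones, that outlived separate selections with 17-DMAG, an inhibitor of the chaperone Hsp90. Each was sequenced untreated and after 17-DMAG at 1.5 µM, in 3 libraries per group, which the series text calls biological replicas. P-values measure only the spread between these libraries. The sample records give the treatment as 48 h and the series text as 2 h. They also give the selection as 3 rounds of 1.5 µM for 48 h, against cycles of 1 µg/ml for 24 h. The study's methods describe the selection as the sample records do. For quantitative RT-PCR of 4T1 and 4T1R1, its supplement gives 2 h of 17-DMAG at 1.5 µM in the methods and 1 h in a figure caption. No time is stated there for the sequenced cells, and the treatment time could not be settled here. The populations were cultured cells of a single line, so each value is a level in a culture, and a change in the share of expressing cells cannot be told apart from a change in each cell.

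The libraries held 23354461 to 55094630 counts. In treated 4T1, the counts of replicates 1 and 2 were closer than those of any other pair within a group (chi-square per gene 1.1, against 2.04 to 2.22 in 17 other pairs). Which value sampling noise alone would give is not settled, since the mates of a read pair may have been counted separately. Replicates 1 and 2 were averaged and counted as 1 sample, which left n = 2 in that group and 17 libraries in the fit. The names of the 4T1R1 libraries come from another number series than those of 4T1 and 4T1R2, so what sets 4T1R1 apart from both cannot be separated from the library series. The 5 epithelial markers (Epcam, Cdh1, Krt8, Krt18, Krt19) were present in every library, with summed levels of 61922 to 62680 normalized counts in untreated 4T1, 42810 to 44727 in 4T1R1 and 48516 to 49350 in 4T1R2. Krt8 and Krt18 held most of these sums, and the markers did not move alike. Means of Krt8, Krt18 and Krt19 were lower in both resistant populations. Those of untreated 4T1, 4T1R1 and 4T1R2 were 11100, 11200 and 13500 for Cdh1 and 1520, 757 and 1420 for Epcam. The 7 leukocyte markers summed to only 145 to 204.8 in untreated 4T1, 227.4 to 232.9 in 4T1R1 and 221 to 258.2 in 4T1R2. Of these, 1 was at 0 throughout, Cd3e reached 2 counts and Ptprc 19, and Cd68 held most of the sum. The 5 fibroblast markers, almost wholly Pdgfra, summed to 688.2 to 770.6 in untreated and 387 to 423.7 in treated 4T1, and their sums were 841.9 to 895.2 in untreated and 713.1 to 776.8 in treated 4T1R1, and 919.8 to 1043 and 798.7 to 908.8 in 4T1R2. All 3 erythroid markers were at 0. The untreated fibroblast sum rises from 4T1 to 4T1R1 to 4T1R2, as Ifitm3 and Slfn2 do below, but this rise is that of Pdgfra (means 712, 844 and 974). In the same order, Col1a1 had 7.52, 17.0 and 8.55 and Col1a2 14.1, 10.3 and 6.14. Pdgfrb and Dcn reached only 7 and 2 counts in any library. The marker sums move with some of the changes below, and their part in them was not tested.

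The stretches next to the starts of most of these genes hold letters through which interferon is known to act. RefSeq promoter windows of GRCm38.p6, 250 bases before to 50 bases after an annotated start, matched all 10 genes and held 12 starts, with Apobec3 and Mov10 having a pair each. The windows were searched on both strands for the ISRE core GAAANNGAA (reverse strand TTCNNTTTC) and for the GAS TTCNNNGAA, which reads alike on both strands. ISRE letters stood in the windows of 5 genes (Ifitm2, Ifitm3, Bst2, Slfn5 and Apobec3) and GAS letters in those of 4 (Ifitm3, Ifitm6, Bst2 and Samhd1). Of all 32851 promoters in the table, 8.56% held the ISRE core and 8.3% the GAS. The stretches of 5 genes are shown, 5′ to 3′ on the gene's own strand with the matched letters in capitals: Bst2 and Ifitm3, where both motifs overlap, Ifitm2, of the same cluster as Ifitm3 and with a single match, Slfn5, which has matches but almost no reads, and Slfn2, whose level differed most between populations and whose window has no match.
Bst2, chr8:71537573-71537623, minus strand: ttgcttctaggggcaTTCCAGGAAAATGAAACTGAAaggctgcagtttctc
Ifitm3, chr7:141010717-141010742, minus strand: GAAAAGGAAacTTCTGAGAAACCGAA
Ifitm2, chr7:140955984-140956022, minus strand: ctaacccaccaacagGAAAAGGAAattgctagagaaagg
Slfn5, chr11:82951932-82951993, plus strand: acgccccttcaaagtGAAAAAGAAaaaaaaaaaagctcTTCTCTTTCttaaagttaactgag
Slfn2, chr11:83065052-83065111, plus strand: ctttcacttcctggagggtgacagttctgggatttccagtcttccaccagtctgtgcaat
In Bst2 a GAS at bases -136 to -128 runs into a pair of ISRE cores at -130 to -122 and -124 to -116, so that the 3 matches share letters. In Ifitm3 the matches lie just downstream of the start, with ISRE cores at bases 3 to 11 and 20 to 28 and a GAS at 14 to 22. The Ifitm2 core, at -46 to -38, has the same 9 letters as the first core of Ifitm3. A match is a description of the letters, and its absence says only that they are not in this window.

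**Figure D1:**
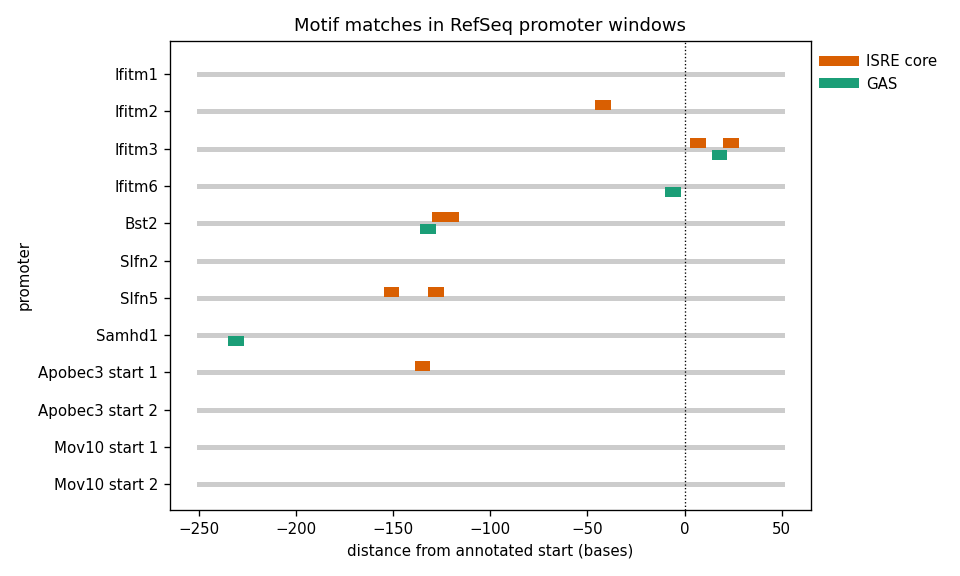
Positions of ISRE cores (orange, above the line) and GAS letters (green, below the line) in the 12 RefSeq promoter windows, as distance in bases from the annotated start (dotted line). Bst2 and Ifitm3 hold overlapping matches to both motifs, and Ifitm1, Slfn2 and Mov10 hold none.

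The genes fall into clusters that matter for reading the counts. On GRCm38 (GENCODE vM21), Ifitm2, Ifitm1, Ifitm3 and Ifitm6 lie within 63.1 kb of chromosome 7 (140954837 to 141017924), and Slfn5 and Slfn2 within 119 kb of chromosome 11 (82951349 to 83070678). Bst2 lies on chromosome 8, Samhd1 on chromosome 2, Apobec3 on chromosome 15 and Mov10 on chromosome 3. The Ifitm and the Slfn genes are related in sequence, and how reads with several matches were counted is not given in the sources used here, so values within each family are uncertain to that extent. Apobec3 overlaps Cbx7, which had up to 1089 counts, on the other strand at its end, and D730005E14Rik, with up to 67 counts, on the same strand. Ifitm2 overlaps the protein-coding gene Gm45717 on the same strand, and Slfn2 the antisense gene Gm20234. Neither of these was analysed here, and whether strand was used in counting is not stated.

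To ask how the resistant populations differed from the parental line before any treatment, untreated cells were compared. Levels of Slfn2, Ifitm3 and Bst2 were higher in both resistant populations than in 4T1. Ifitm2 (1.33-fold) and Apobec3 (1.18-fold) were higher in 4T1R2, and Samhd1 was higher in both (1.10-fold in 4T1R1 and 1.17-fold in 4T1R2). Mov10 differed by little. The low level of Ifitm6 was higher in 4T1R2, while its call in 4T1R1 rested on single libraries. Of the 9 genes tested, 5 were called higher in 4T1R1 than in 4T1 and 0 lower, where edgeR's quasi-likelihood test called 25.2% of all genes higher and 27.5% lower. In 4T1R2 8 were called higher than in 4T1 and 0 lower, against 25.6% and 26.9% of all genes. Between the resistant populations, 6 were called higher in 4T1R2 and 0 lower, against 19.7% and 19.0% of all genes. In all 3 comparisons no gene of the 9 was lower at an unadjusted P-value under 0.05, and DESeq2 called 0 lower. The median log2 difference over the 9 was 0.25 in 4T1R1 and 0.41 in 4T1R2, beside 0.0075 and 0.0068 over all genes. The 4T1R1 median was the value of the rare gene Ifitm1 and was unsteady. It fell to 0.162 without untreated 4T1 replicate 2 and to 0.135 and 0.144 without untreated 4T1R1 replicates 1 and 3, and it was 0.549 without untreated 4T1 replicate 3 and 0.522 without untreated 4T1R1 replicate 2. Both comparisons share the untreated 4T1 libraries. Without untreated 4T1R1 replicate 3, only 3 of the 9 were called higher in 4T1R2 than in 4T1R1.

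**Figure D2:**
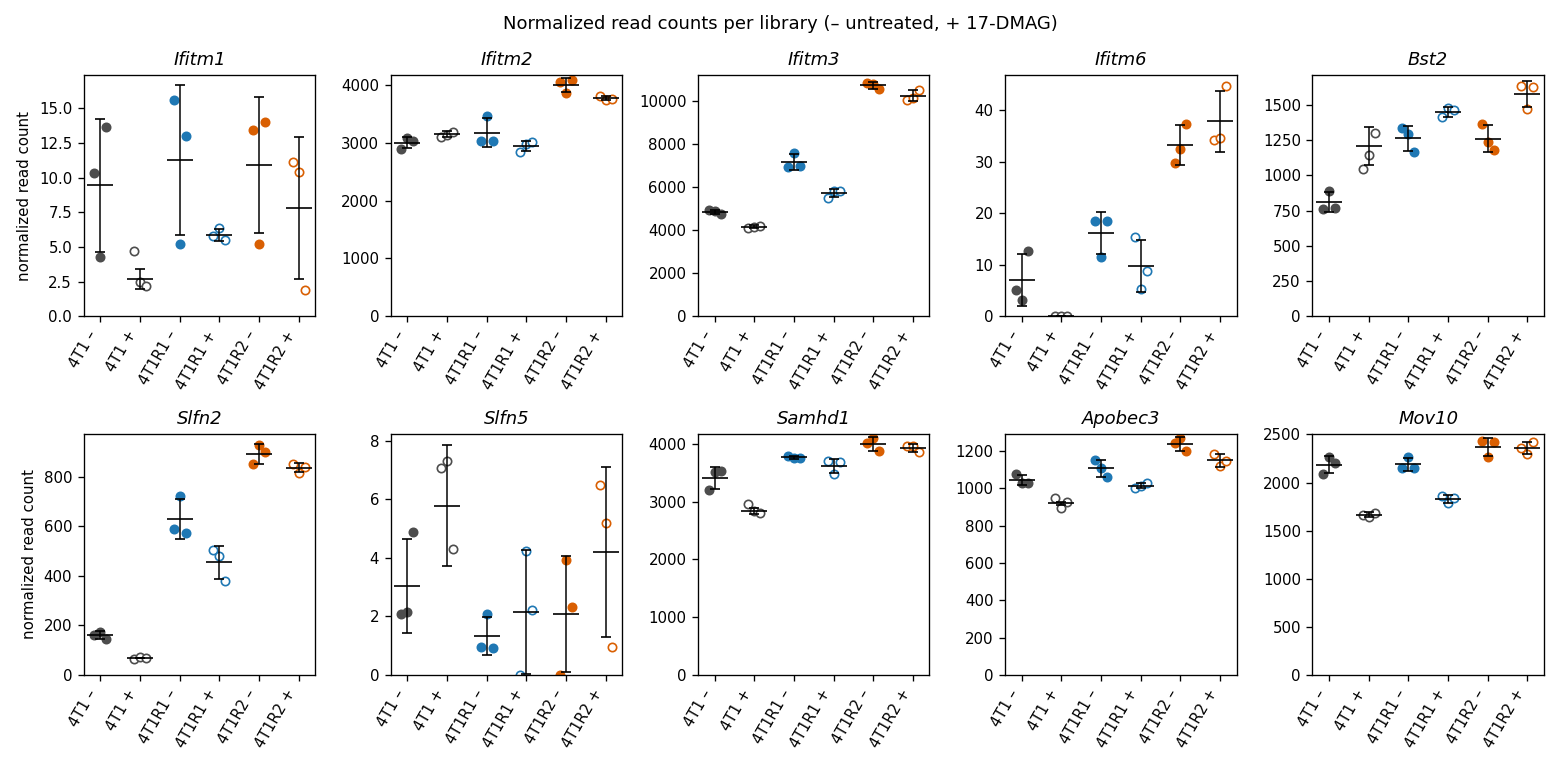
Normalized read count (linear axis from 0, own scale per gene) of the 10 genes in each of the 18 libraries, untreated (filled, –) and 17-DMAG-treated (open, +), with the group mean ± SD (black; n = 3, and n = 2 in treated 4T1, where replicates 1 and 2 were averaged). Slfn2 and Ifitm3 step up from 4T1 to 4T1R1 to 4T1R2, and Ifitm1 and Slfn5 stay at a few counts everywhere.

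Among the membrane proteins of the Ifitm family, Ifitm3, known for blocking influenza virus in endosomes, had the most reads. Its normalized counts were 4938, 4889 and 4765 in untreated 4T1, 6953, 7598 and 7011 in 4T1R1, and 10838, 10831 and 10562 in 4T1R2. The 3 populations did not overlap, with 4T1 lowest and 4T1R2 highest. The level was 1.48-fold that of 4T1 in 4T1R1 (log2 difference 0.56 ± 0.033 SE, adjusted P = 4.51e-18) and 2.21-fold in 4T1R2 (1.14 ± 0.033, adjusted P = 1.5e-28), and the resistant populations differed by 0.58 ± 0.032 (adjusted P = 3.34e-18).

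Ifitm2, a close relative of Ifitm3, had 2896, 3079 and 3031 normalized counts in untreated 4T1, 3035, 3471 and 3032 in 4T1R1, and 4050, 3867 and 4080 in 4T1R2. The 4T1R2 libraries were above all others, and those of 4T1R1 overlapped with 4T1. The log2 difference from 4T1 was 0.41 ± 0.042 in 4T1R2 (adjusted P = 3.19e-11) and 0.08 ± 0.042 in 4T1R1 (adjusted P = 0.0989). The latter passed the threshold without untreated 4T1R1 replicate 1 (0.11, adjusted P = 0.0362) or 3 (0.12, adjusted P = 0.0313) and with scaling by total counts alone (0.11, adjusted P = 0.0286).

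Ifitm6, a less studied mouse member of the family, was rare. Its raw counts were 5, 3 and 13 in untreated 4T1, 19, 11 and 20 in 4T1R1, and 31, 25 and 32 in 4T1R2. The 4T1R2 libraries stood above the others, while 4T1R1 and 4T1 overlapped. The log2 difference from 4T1 was 2.20 ± 0.46 in 4T1R2 (adjusted P = 0.000111) and 1.17 ± 0.50 in 4T1R1 (adjusted P = 0.0464), and the resistant populations differed by 1.02 ± 0.41 (adjusted P = 0.0425). With so few counts, the latter 2 differences rest on single libraries. That of 4T1R1 from 4T1 missed the threshold without untreated 4T1 replicate 1 or 2, untreated 4T1R1 replicate 1 or 3, or treated 4T1R2 replicate 1 or 2 (log2 difference 0.84 to 1.17, adjusted P 0.0502 to 0.191), and with only the groups compared in the fit (adjusted P = 0.0587). The difference between the resistant populations missed it without any of their 6 untreated libraries (0.83 to 1.13, adjusted P 0.0568 to 0.15). Ifitm1, which acts on viruses at the cell surface, had 2 to 16 counts in every library, and its untreated log2 differences of 0.25 ± 0.56 in 4T1R1 and 0.22 ± 0.58 in 4T1R2 did not pass the test.

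The largest untreated difference was that of Slfn2. Its normalized counts were 162.6, 174.2 and 143.4 in untreated 4T1, 589.5, 720.6 and 573.9 in 4T1R1, and 849.7, 925.9 and 899.3 in 4T1R2. Again no population overlapped with another, and 4T1R2 was highest. The level in 4T1R1 was 3.92-fold (log2 1.97 ± 0.10, adjusted P = 6.94e-20) and in 4T1R2 5.57-fold (log2 2.48 ± 0.10, adjusted P = 1.81e-23) that of 4T1, and 4T1R2 exceeded 4T1R1 by 0.51 ± 0.084 on the log2 scale (adjusted P = 4.28e-06). Slfn5, at lower coordinates of the same chromosome, had 2, 2 and 5 raw counts in untreated 4T1, 1, 2 and 1 in 4T1R1, and 0, 3 and 2 in 4T1R2. No difference was detectable at this depth. These 2 Schlafen genes of the same cluster thus had unequal levels, with means of 628 and 1.33 normalized counts in untreated 4T1R1.

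Bst2, which tethers virus particles to the plasma membrane, had 763.4, 889.1 and 770.4 normalized counts in untreated 4T1, 1334, 1294 and 1163 in 4T1R1, and 1364, 1236 and 1182 in 4T1R2. Both resistant populations lay above 4T1 and overlapped with each other. The log2 difference from 4T1 was 0.65 ± 0.067 in 4T1R1 (adjusted P = 8.99e-11) and 0.65 ± 0.068 in 4T1R2 (adjusted P = 1.09e-10). Between 4T1R2 and 4T1R1 it was near 0, with a 95% interval of -0.13 to 0.13 (adjusted P = 0.995), and its sign changed with the scaling. Unlike Slfn2 and Ifitm3, Bst2 thus had no difference between the resistant populations that passed the test.

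Samhd1, the deoxynucleotide hydrolase, had 3200, 3521 and 3529 normalized counts in untreated 4T1, 3795, 3752 and 3751 in 4T1R1, and 4020, 4100 and 3876 in 4T1R2. The resistant populations lay above 4T1 without overlap, by 0.14 ± 0.038 (adjusted P = 0.00169) and 0.23 ± 0.038 (adjusted P = 2.59e-06) on the log2 scale, or 1.10-fold and 1.17-fold. Between 4T1R2 and 4T1R1 the difference was 0.09 ± 0.038 (adjusted P = 0.0656), and it passed the threshold without untreated 4T1 replicate 1 (adjusted P = 0.0446) or untreated 4T1R2 replicate 3 (adjusted P = 0.0445).

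Apobec3, the cytidine deaminase, had 1077, 1028 and 1028 normalized counts in untreated 4T1, 1150, 1108 and 1063 in 4T1R1, and 1245, 1270 and 1198 in 4T1R2. Only the 4T1R2 libraries stood apart from those of the other untreated populations. They exceeded 4T1 by 0.24 ± 0.054 (log2, adjusted P = 0.000168) and 4T1R1 by 0.16 ± 0.053 (adjusted P = 0.0139). The latter missed the threshold without untreated 4T1R1 replicate 3 (0.13, adjusted P = 0.0809) or 4T1R2 replicate 2 (0.14, adjusted P = 0.0565). In 4T1R1 the difference from 4T1 was 0.08 ± 0.053 (adjusted P = 0.192).

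Mov10, the RNA helicase, had 2088, 2265 and 2200 normalized counts in untreated 4T1, 2148, 2268 and 2149 in 4T1R1, and 2428, 2261 and 2426 in 4T1R2. These ranges overlapped in every pair of populations. In 4T1R1 the log2 difference from 4T1 had a 95% interval of -0.0819 to 0.086 (adjusted P = 0.973). In 4T1R2 it was 1.09-fold higher (0.12 ± 0.043, adjusted P = 0.0176), a difference that missed the threshold without untreated 4T1 replicate 1 or 4T1R2 replicate 1 or 3 (0.089 to 0.11, adjusted P 0.0691 to 0.117). The same held for 4T1R2 against 4T1R1 (0.12 ± 0.043, adjusted P = 0.0261) without replicate 1 or 3 of either (0.10 to 0.11, adjusted P 0.0882 to 0.113).

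**Figure D3:**
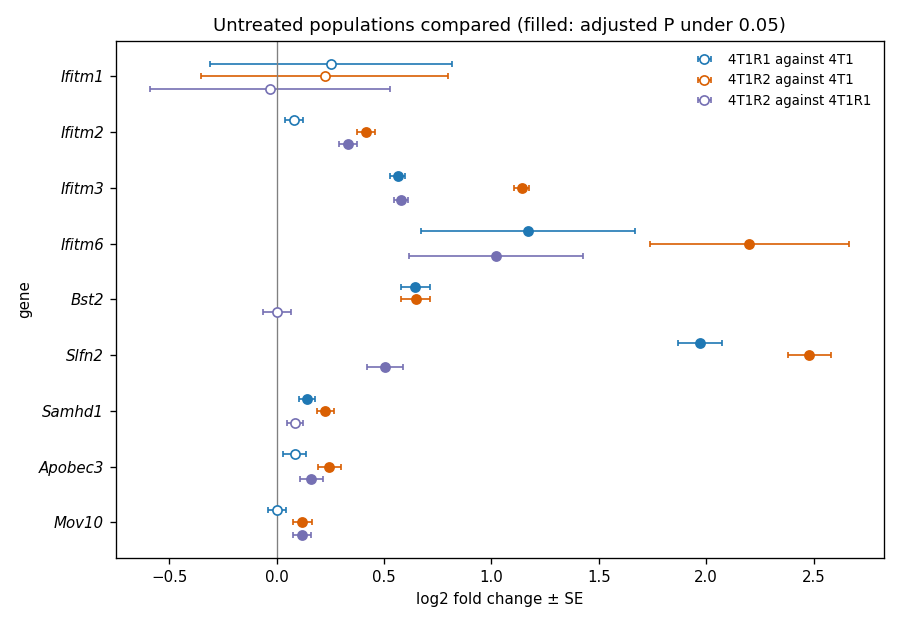
Log2 fold change ± SE (edgeR) of the 9 genes tested, for untreated 4T1R1 against 4T1 (blue), 4T1R2 against 4T1 (orange) and 4T1R2 against 4T1R1 (purple). Filled points passed the threshold of 0.05 on the adjusted P-value, and Slfn2 lies farthest right, at 1.97 and 2.48 against 4T1.

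Each population was then compared with itself after 17-DMAG. In 4T1, 6 of the genes were lower after treatment and Bst2 alone was higher, in 4T1R1 4 were lower and again Bst2 alone higher, and in 4T1R2 only Bst2 passed the test. In 4T1, 1 of the 9 genes was called higher, where 18.4% of all genes were, and 6 lower (17.9% of all genes). In 4T1R1 these counts were 1 higher (13.9% of all genes) and 4 lower (14.3%). In 4T1R2 they were 1 higher (6.18%) and 0 lower (4.35%), with 2 lower at an unadjusted P-value under 0.05 and 0 by DESeq2. Over the 9 genes the median log2 change came to -0.27 for 4T1, -0.26 for 4T1R1 and -0.065 for 4T1R2, beside medians of -0.0086 to 0.00065 over all genes. Scaling by total counts alone shifted the median of all genes by -0.11 in 4T1 and changed the balance of calls, to 1193 genes higher and 4322 lower in 4T1, 2356 and 1316 in 4T1R1, and 365 and 1146 in 4T1R2, so small changes after treatment depend on the scaling.

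Bst2 rose in each population. Its normalized counts after 17-DMAG were 1046, 1145 and 1302 in 4T1, 1411, 1479 and 1462 in 4T1R1, and 1632, 1472 and 1625 in 4T1R2, and in each population all treated libraries lay above the untreated ones. The change was 0.57 ± 0.074 on the log2 scale in 4T1 (1.49-fold, adjusted P = 3.34e-08) and 0.32 ± 0.064 in 4T1R2 (1.25-fold, adjusted P = 0.000484). In 4T1R1 it was 0.20 ± 0.064 (1.15-fold, adjusted P = 0.0158) and missed the threshold without untreated replicate 3 (0.14, adjusted P = 0.125) or treated replicate 2 (0.185, adjusted P = 0.0571). Treated 4T1 thereby reached a mean of 1206, close to the 1264 and 1261 of the untreated resistant populations.

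On the log2 scale Slfn2 fell most in 4T1, where it was lowest, and less in 4T1R1, and no fall was detected in 4T1R2. After 17-DMAG its normalized counts were 63.7, 73.9 and 69.1 in 4T1, 502.3, 480.3 and 379.6 in 4T1R1, and 850.6, 815.3 and 840.7 in 4T1R2. Treated and untreated libraries were apart in 4T1 and 4T1R1 and overlapped in 4T1R2. The log2 change was -1.19 ± 0.16 in 4T1 (2.28-fold lower, adjusted P = 6.95e-08), -0.46 ± 0.088 in 4T1R1 (1.38-fold lower, adjusted P = 8.73e-05) and -0.09 ± 0.081 in 4T1R2 (adjusted P = 0.546). Slfn5 had 6, 12 and 4 raw counts in treated 4T1, 0, 4 and 2 in 4T1R1, and 7, 6 and 1 in 4T1R2, too few for a comparison.

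Ifitm3 fell in 4T1 and 4T1R1. After treatment its normalized counts were 4129, 4133 and 4211 in 4T1, 5525, 5828 and 5845 in 4T1R1, and 10083, 10179 and 10553 in 4T1R2. The treated libraries lay below the untreated ones in each population, by the smallest margin in 4T1R2. The log2 change was -0.22 ± 0.038 in 4T1 (adjusted P = 7.6e-06), -0.33 ± 0.033 in 4T1R1 (adjusted P = 3.06e-10) and -0.06 ± 0.032 in 4T1R2 (adjusted P = 0.211). With total counts alone the change in 4T1R2 was -0.11 (adjusted P = 0.0197).

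For Ifitm2, treated libraries had 3094, 3130 and 3197 normalized counts in 4T1, 2844, 2977 and 3015 in 4T1R1, and 3817, 3747 and 3759 in 4T1R2. The shift was upward in 4T1 and downward in the others, and small in all. Its log2 change was 0.07 ± 0.046 in 4T1 (adjusted P = 0.242), where total counts alone turned it to -0.04, -0.11 ± 0.042 in 4T1R1 (adjusted P = 0.0457) and -0.08 ± 0.041 in 4T1R2 (adjusted P = 0.205). The call in 4T1R1 was lost by DESeq2 (adjusted P = 0.0514), with total counts alone (0.19) and with only the groups compared in the fit (0.103). It was lost as well without replicate 3 of either 4T1 group, untreated 4T1R1 replicate 2, treated 4T1R1 replicate 1 or 2, untreated 4T1R2 replicate 3 or treated 4T1R2 replicate 1 (adjusted P 0.0505 to 0.496). In 4T1R2 total counts alone gave a call (-0.13, adjusted P = 0.0306).

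Ifitm6 was at 0 counts in all 3 treated 4T1 libraries, of which replicates 1 and 2 count as 1 sample, against 21 counts in the 3 untreated ones. Taking 3 counts per library as the floor and the untreated mean as it stands, it was at least 2.17-fold lower after treatment (adjusted P = 0.0016). If mates were counted separately, the floor would be 6 counts and the bound 1.08-fold. The untreated libraries had 5, 3 and 13 counts, and neither bound covers that spread. In 4T1R1 it had 16, 5 and 8 counts after treatment, and in 4T1R2 37, 40 and 47, overlapping with the untreated libraries in both (log2 changes -0.70 ± 0.47 and 0.19 ± 0.36, adjusted P = 0.295 and 0.819). Ifitm1 had 4, 4 and 2 counts in treated 4T1, a log2 change of -1.74 ± 0.81 (adjusted P = 0.0916) that passed the threshold without untreated 4T1 replicate 2 (-2.08, adjusted P = 0.047). The log2 change of Ifitm1 was -0.94 ± 0.61 in 4T1R1 and -0.49 ± 0.58 in 4T1R2, and neither passed.

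The intracellular factors Mov10, Samhd1 and Apobec3 each fell in 4T1. Mov10 had 1660, 1641 and 1684 normalized counts in treated 4T1, 1863, 1783 and 1844 in 4T1R1, and 2356, 2296 and 2416 in 4T1R2. Treated libraries lay below untreated ones in 4T1 and 4T1R1 and among them in 4T1R2. The log2 change of Mov10 was -0.39 ± 0.049 in 4T1 (1.31-fold lower, adjusted P = 1.58e-08), -0.26 ± 0.043 in 4T1R1 (1.2-fold lower, adjusted P = 1.39e-05) and -0.01 ± 0.043 in 4T1R2 (adjusted P = 0.914).

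Samhd1 had 2965, 2838 and 2801 normalized counts in treated 4T1, 3698, 3487 and 3687 in 4T1R1, and 3961, 3973 and 3859 in 4T1R2. In 4T1 and 4T1R1 these were below the untreated libraries, and in 4T1R2 they overlapped with them. Its log2 change was -0.27 ± 0.043 in 4T1 (adjusted P = 2.66e-06), -0.06 ± 0.037 in 4T1R1 (adjusted P = 0.296) and -0.02 ± 0.037 in 4T1R2 (adjusted P = 0.762).

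Apobec3 had 950.1, 895.5 and 925.6 normalized counts in treated 4T1, 1001, 1014 and 1029 in 4T1R1, and 1186, 1118 and 1149 in 4T1R2. Every treated library lay below the untreated ones of its population. The log2 change was -0.18 ± 0.060 in 4T1 (adjusted P = 0.0146), -0.13 ± 0.054 in 4T1R1 (adjusted P = 0.0758) and -0.11 ± 0.053 in 4T1R2 (adjusted P = 0.227). That of 4T1 missed the threshold without untreated replicate 1 (adjusted P = 0.0591) or treated replicate 3 (adjusted P = 0.0563), and that of 4T1R1 passed it without untreated replicate 3 (adjusted P = 0.0495).

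**Figure D4:**
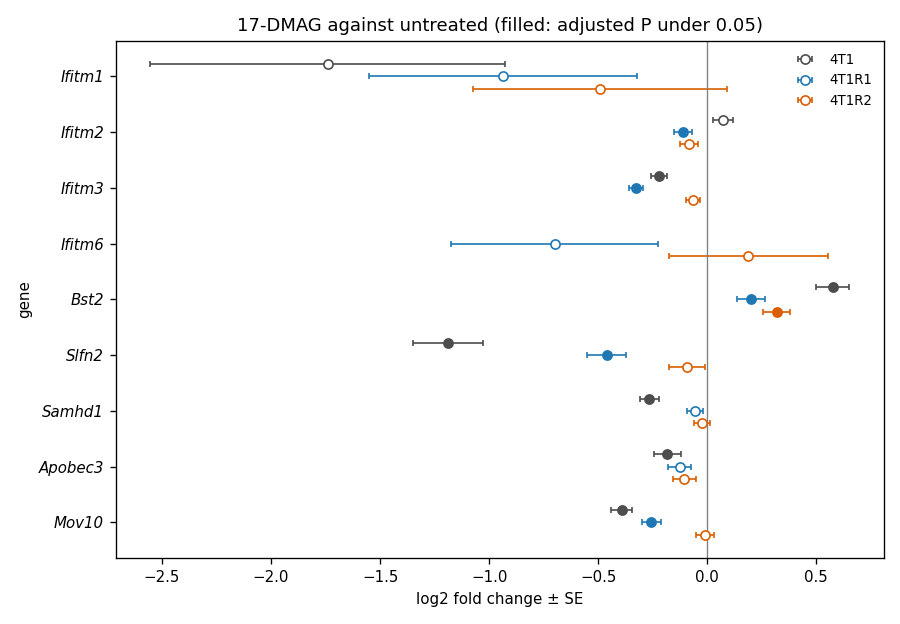
Log2 fold change ± SE (edgeR) after 17-DMAG in 4T1 (grey), 4T1R1 (blue) and 4T1R2 (orange) for the 9 genes tested, with filled points where the adjusted P-value was under 0.05. Ifitm6 in 4T1 is left out because all treated libraries were at 0. Bst2 lies right of 0 in all 3 populations, and Slfn2 lies at -1.19 in 4T1 and near 0 in 4T1R2.

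Whether the responses differed between populations was tested as an interaction, the response of a resistant population minus that of 4T1. For 4T1R1, 3 of the 9 genes were called higher (9.16% of all genes) and 2 lower (9.08%). For 4T1R2, 5 were called higher (9.62%) and 0 lower (8.16%), with 2 lower at an unadjusted P-value under 0.05 and 0 by DESeq2. For Slfn2 the response exceeded that of 4T1 by 0.73 ± 0.19 (log2) in 4T1R1 (adjusted P = 0.00357) and by 1.10 ± 0.18 in 4T1R2 (adjusted P = 1.06e-05), since the fall seen in 4T1 was smaller or not detected there. Mov10 showed such a difference in 4T1R2 (0.38 ± 0.065, adjusted P = 2.08e-05) and not, by this test, in 4T1R1 (0.13 ± 0.065, adjusted P = 0.164), where total counts alone gave a call (0.285, adjusted P = 0.00127). For Apobec3 the differences of 0.058 ± 0.081 and 0.079 ± 0.080 did not pass the test (adjusted P = 0.698 and 0.569). Both interactions share the 4T1 libraries, and without treated 4T1 replicate 3, which leaves 1 sample in that group that is assumed to vary like the others, the calls for 4T1R1 numbered 1 higher and 0 lower. With total counts alone, 3536 of all genes were called higher and 419 lower for 4T1R1, and 2091 and 632 for 4T1R2.

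The levels of the genes relative to each other, compared after scaling for exon length and library size (RPKM), spanned a wide range. In untreated 4T1, Ifitm3 had 232 ± 4.24 RPKM (SD, n = 3) and Ifitm2 148 ± 4.67, followed by Bst2 at 32.9 ± 2.88, Samhd1 at 20.1 ± 1.10, Mov10 at 18.8 ± 0.77 and Apobec3 at 11.3 ± 0.308. Samhd1 and Mov10 are neighbours in this order whose levels differed by about their spread. Slfn2 stood at 3.11 ± 0.302, and Ifitm1, Ifitm6 and Slfn5 at or below 0.278. In untreated 4T1R2 Ifitm3 reached 512 ± 7.5 RPKM and Slfn2 17.3 ± 0.75, above the 13.4 ± 0.40 of Apobec3, which it lay below in 4T1.

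Across the 6 groups, untreated 4T1R2 had the highest mean for Ifitm2, Ifitm3, Slfn2, Samhd1, Apobec3 and Mov10, and treated 4T1 the lowest for Ifitm3, Slfn2, Samhd1, Apobec3 and Mov10. For Ifitm3 each group stood apart from the next, in the order untreated 4T1R2, treated 4T1R2, untreated 4T1R1, treated 4T1R1, untreated 4T1 and treated 4T1. Slfn2 followed the same order, with the pair of 4T1R2 groups overlapping. Bst2 departed from it, with the highest mean in treated 4T1R2 (1576 ± 90.2) and the lowest in untreated 4T1 (808 ± 70.6), and with the treated groups of 4T1R2 and 4T1R1 overlapping at the top and untreated 4T1R1, untreated 4T1R2 and treated 4T1 overlapping in the middle.

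Genes of interferon signalling, whose action on the genes described here was not tested, were read from a list of 19, of which 16 were tested. Against 4T1, 11 were called higher and 1 lower in untreated 4T1R1, and 9 and 2 in 4T1R2, with median log2 differences of 0.64 and 0.45. Over all genes, 25.2% and 27.5% were called higher and lower in the former and 25.6% and 26.9% in the latter. Among them, Ifnar1 had log2 differences of 0.06 ± 0.044 in 4T1R1 and -0.04 ± 0.045 in 4T1R2 that did not pass the test, while Ifnar2, the other receptor chain, had 649.4 to 706.3 normalized counts in 4T1, 1423 to 1513 in 4T1R1 and 1333 to 1346 in 4T1R2 (log2 1.12 ± 0.058 and 1.00 ± 0.059). The transcription factors Stat2 (0.69 and 0.94) and Irf9 (0.63 and 0.90) were higher in 4T1R1 and 4T1R2, and Irf7, which amplifies interferon production, was higher by 1.70 ± 0.084 and 1.73 ± 0.084. Usp18, the interferon-induced brake on Ifnar2 signalling, rose from 30.2 to 43.8 normalized counts in 4T1 to 239.6 to 288.4 in 4T1R1 and 249.1 to 258.5 in 4T1R2 (log2 2.81 ± 0.15 and 2.79 ± 0.15). Between the resistant populations, 2 were higher in 4T1R2 (Irf9 by 0.26 and Stat2 by 0.245) and 5 lower, among them the interferon-gamma receptor gene Ifngr1 (-0.31). Of all genes, 19.7% were called higher and 19.0% lower in this comparison. The interferon genes Ifnb1, Ifna4 and Ifne had at most 4, 0 and 5 counts in any library and were not tested. Ifnk, the remaining interferon gene of the list, passed the filter on low counts and is among the genes tested.

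After 17-DMAG the counts of the 16 signalling genes called higher and lower were 3 and 5 in 4T1 (18.4% and 17.9% of all genes), 0 and 6 in 4T1R1 (13.9% and 14.3%), and 0 and 0 in 4T1R2 (6.18% and 4.35%), where 1 and 3 passed unadjusted and DESeq2 called 0 and 0. For 4T1R1, 0 were higher unadjusted and by DESeq2 as well. In 4T1 the median log2 change over the 16 was -0.094. Among the genes named above, Usp18 (1.19) and Irf9 (0.30) rose there on the log2 scale and Ifnar1 fell by 0.23. Of the 9 tested genes described here, 6 fell in the same libraries.

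**Figure D5:**
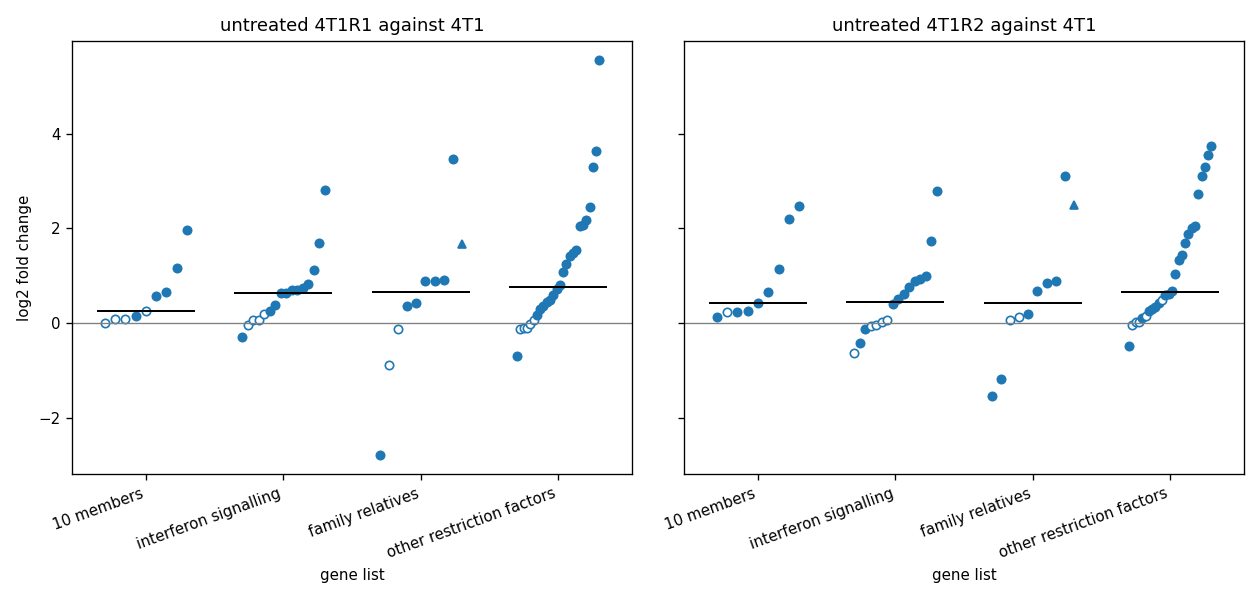
Log2 fold change of each tested gene in untreated 4T1R1 (left) and 4T1R2 (right) against 4T1, for the 9 tested genes described here (the column headed 10 members) and 3 lists of related genes, with list medians (black lines) and filled points where the adjusted P-value was under 0.05. Triangles mark Slfn4, at its lower bound, and most filled points lie above 0 in each list.

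Relatives of the 10 genes numbered 16, of which 10 were tested. In untreated 4T1R1 7 were called higher and 1 lower than in 4T1, and in 4T1R2 6 and 2 (medians 0.65 and 0.43). The shares of all genes were 25.2% and 27.5% in the former and 25.6% and 26.9% in the latter. Slfn4, in the same family as Slfn2, had 0 counts in untreated 4T1, 10, 10 and 11 in 4T1R1 and 18, 7 and 24 in 4T1R2, at least 3.16-fold and 5.66-fold higher with 3 counts per library as the floor and 1.58-fold and 2.83-fold with 6. Slfn14 had 0, 0 and 4 counts in 4T1, 11, 21 and 18 in 4T1R1 and 12, 6 and 16 in 4T1R2. Mov10l1, the germline relative of Mov10, had 30, 26 and 38 counts in 4T1 and was lower in 4T1R1 (11, 0 and 3) and 4T1R2 (10, 12 and 7), in contrast to Mov10 itself. Apobec1, an RNA-editing relative of Apobec3, had 63.1 to 81.9 normalized counts in 4T1R1 and 13 to 19.9 in 4T1R2 (log2 difference -2.08 ± 0.325, adjusted P = 1.59e-06). After 17-DMAG the calls higher and lower among the 10 relatives tested were 1 and 2 in 4T1 (18.4% and 17.9% of all genes). In 4T1R1 they were 1 and 0 (13.9% and 14.3% of all genes), with 1 lower unadjusted and 0 by DESeq2. In 4T1R2 they were 0 and 1 (6.18% and 4.35% of all genes), with 0 higher unadjusted and by DESeq2. Slfn3 was 0.25 ± 0.0545 higher and Slfn9 0.18 ± 0.036 lower in 4T1R2 than in 4T1R1.

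A further list held 29 other genes known to restrict viruses or retroelements, 28 of them in the table and 26 tested. Whether their products act in this line was not tested. In each resistant population 20 of the 26 genes were called higher and 1 lower than in 4T1, with medians of 0.76 and 0.65. The shares of all genes were 25.2% and 27.5% in 4T1R1 and 25.6% and 26.9% in 4T1R2. The largest differences were those of Mx1 (3.64 ± 0.37 and 3.74 ± 0.37), Mx2 (3.29 ± 0.23 and 3.56 ± 0.225) and Trim30d. In untreated 4T1, Mx1 had only 2, 11 and 2 raw counts and Mx2 25, 6 and 17. Trim30d had 2, 0 and 2 counts in 4T1, 80, 49 and 85 in 4T1R1 and 21, 8 and 10 in 4T1R2. Between the resistant populations 8 of the 26 were higher in 4T1R2 and 4 lower (19.7% and 19.0% of all genes). Rsad2 (viperin) differed by 1.04 ± 0.10 and Ifit1, which binds viral RNA, by 0.56 ± 0.096, both higher in 4T1R2 as Slfn2 and Ifitm3 were. After 17-DMAG 11 of the list were higher and 2 lower in 4T1 (18.4% and 17.9% of all genes), against 1 and 6 of the 9 genes described here. Rsad2 rose there by 2.38 ± 0.15 and Ifit1 by 2.01 ± 0.14 on the log2 scale. In 4T1R1 5 of the 26 were higher and 3 lower (13.9% and 14.3% of all genes), and in 4T1R2 2 and 1 (6.18% and 4.35%). All 3 lists were chosen with these results known, and their counts are descriptions.

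The genes with the pattern most like each tested gene were found from the group means of log2(normalized count + 1) over the 6 groups, centred on each gene's own mean, among 10637 or 10638 genes with at least 100 normalized counts in some group. The root mean square difference served as the measure, with smaller values for more like patterns. Nearest to Ifitm3 were Entpd5 (0.0397) and Ets2 (0.0743), beside a range of 1.36 across groups in Ifitm3 itself. Tnxb (0.216) and Sox15 (0.245) were nearest to Slfn2, whose range was 3.66, and Slfn2 (0.606) and Blnk (0.615) to Ifitm6. For Bst2 they were Plin2 (0.0635) and Arhgap8 (0.0942), for Ifitm2 Adam15 (0.0271) and Ndufa9 (0.0293), and for Ifitm1, at its few counts, Ier2 (0.137) and Pnrc1 (0.138). Samhd1 was nearest to Tspyl1 (0.0201) and Kdsr (0.0258), Apobec3 to Ttc23 (0.0167) and Mmachc (0.0245), and Mov10 to Arl6ip5 (0.0297) and Polrmt (0.0344). For Ifitm2, Samhd1, Apobec3 and Mov10 the range across groups was only 0.43 to 0.51, so that many genes lie close to them.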

How the data were processed

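RNA of 18 cultures (6 groups, 3 libraries each) was sequenced by the authors, who removed ribosomal RNA, made stranded libraries, aligned reads with STAR to mm10 and counted them per gene with featureCounts (Subread 1.6.2 and bcl2fastq 2.20 per the labels). The deposited values are raw read counts, without normalization. Of small counts (1 to 12), 65.6% to 70.8% were even, so mates may have been counted separately. Floors cover counting error only, and a floor of 6 in place of 3 counts was added after seeing the data.

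The analysis of these counts used edgeR 4.0.16 and R 4.3.3 (filterByExpr, TMM, quasi-likelihood test, Benjamini-Hochberg over 13507 genes, threshold 0.05; common biological coefficient of variation 0.0376). Normalized counts are counts scaled to the mean TMM library size. The quasi-likelihood test gives no SE of its own. The SE printed here is the absolute log2 change divided by the square root of the test's F statistic. The 95% intervals take this SE with a normal distribution. Code was tested on simulated data. RPKM used exon lengths of GENCODE vM21. Promoters came from RefSeq (GRCm38.p6). Figures used matplotlib 3.10.9.

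The members and lists were chosen with earlier results of these data known. Named were the 10 genes, Stat2, Irf9, Irf7, Ifnar1 and Ifnar2, at most 3 called genes per list and untreated comparison by size of change, and 2 nearest patterns per gene. Usp18, Rsad2 and Ifit1 after treatment repeat names so chosen, and the interferon genes of the list are named for completeness. Another signalling gene of the rule and a marker gene are not reported here. Alternatives were RLE scaling, total counts alone, no filter, at least 10 counts in every library, DESeq2 1.42.0, only the groups compared, 18 libraries, a replicate block, no Rn45s (9.54% to 15.6% of counts), and each library left out.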

Additional observations from a re-analysis of the deposited data

Results flagged for a closer look

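The response to 17-DMAG of 7 of the genes differed from that of 4T1 by the interaction test of edgeR in 10 results, given as log2 differences of response (resistant population minus 4T1).

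In 4T1R1 these were 0.73 for Slfn2, 0.21 for Samhd1, 5.16 for Ifitm6, -0.375 for Bst2 and -0.182 for Ifitm2 (adjusted P = 0.00357, 0.00649, 0.0287, 0.00491 and 0.036). That of Slfn2 passed under every alternative run. Without treated 4T1 replicate 3, those of Samhd1 (0.19, adjusted P = 0.0528), Bst2 (-0.26, adjusted P = 0.125), Ifitm2 (-0.16, adjusted P = 0.165) and Ifitm6 (adjusted P = 0.116) missed the threshold. With total counts alone, that of Bst2 was -0.23 (adjusted P = 0.0786) and that of Ifitm2 -0.03 (adjusted P = 0.76). That of Ifitm2 was lost as well without untreated 4T1 replicate 1, treated 4T1 replicate 2, untreated 4T1R1 replicate 2 or treated 4T1R1 replicate 1 (adjusted P 0.0607 to 0.17), and that of Ifitm6 without untreated 4T1 replicate 3 (adjusted P = 0.0943) or treated 4T1R1 replicate 1 (adjusted P = 0.0723). With only the groups compared in the fit, both missed it too (adjusted P = 0.0585 for Ifitm2 and 0.0537 for Ifitm6).

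In 4T1R2 they were 1.10 for Slfn2, 0.38 for Mov10, 0.24 for Samhd1, 0.16 for Ifitm3 and 6.05 for Ifitm6 (adjusted P = 1.06e-05, 2.08e-05, 0.00167, 0.0214 and 0.00435). That of Ifitm3 missed the threshold without treated 4T1R2 replicate 3 (0.14, adjusted P = 0.0596). For Ifitm2 the difference of -0.156 (adjusted P = 0.0756) passed it without untreated 4T1R1 replicate 2 (adjusted P = 0.0273). For Bst2 the difference of -0.26 (adjusted P = 0.0647) passed it without untreated 4T1 replicate 2 (-0.33, adjusted P = 0.016), treated 4T1 replicate 1 (-0.28, adjusted P = 0.0369) or untreated 4T1R2 replicate 3 (-0.30, adjusted P = 0.0427). Both values for Ifitm6 are fitted against a group at 0 counts, depend on the prior count of the fit and are no bound on the difference.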

How the results depend on the processing

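Of the log2 values of single genes under the alternatives, 1839 kept direction and side of the threshold, 52 lost the call, 16 gained one and 19 changed sign, none of the last with a call in both settings. Counts of the 9 genes called moved by over 1.5 times as follows, and the cause was not tested. Total counts alone gave 2 lower after 17-DMAG in 4T1R2 and 0 lower in the difference of response of 4T1R1. Only the groups compared gave 1 lower in each difference of response, and no filter 1 lower in that of 4T1R2. With each library left out in turn, calls higher ran from 3 to 7 in untreated 4T1R2 against 4T1R1, 0 to 1 after 17-DMAG in 4T1R1 and 1 to 3 in the difference of response of 4T1R1, and calls lower from 0 to 2 in that of 4T1R1 and 0 to 1 in that of 4T1R2. Apart from the rare gene Ifitm1, signs turned only near 0. Those of Ifitm1 against 4T1 turned from 0.253 ± 0.562 in 4T1R1 and 0.224 ± 0.576 in 4T1R2, values smaller than their SE. For Bst2 between the resistant populations the value was -0.00663 with total counts alone, -0.00571 without a filter, -0.000997 without Rn45s and -0.0631 to 0.0443 with a library left out. Total counts alone turned Ifitm2 after 17-DMAG in 4T1 to -0.0436 and Ifitm3 in the difference of response of 4T1R1 to 0.0454. With a library left out, Ifitm1 ran from -0.0812 to 0.621 and -0.111 to 0.592 in 4T1R1 and 4T1R2 against 4T1 and from -0.355 to 0.267 between them, and Mov10 from -0.0292 to 0.0286 in untreated 4T1R1 and -0.0429 to 0.00748 after 17-DMAG in 4T1R2. Ifitm6 could not be tested in every setting, since a stricter filter removes it.

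The replicate numbers did not pair the samples: 18 correlations of deviations between same-numbered libraries ran from -0.0264 to 0.0446, with 0 over 0.1. With the replicate number as a block, which was fitted on all 18 libraries without averaging a pair, the counts called higher in untreated 4T1R1, 4T1R2 and between them were 5, 8 and 6 again. Low counts limit Ifitm1, Ifitm6 and Slfn5.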
